A study of Homo sapiens with 8 samples.

Results

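Small open reading frames (smORFs) that lie in genes of cell division were followed by ribosome profiling (Ribo-Seq) in Caco-2, an established line from a human colon tumour whose cells come to resemble absorptive enterocytes as they differentiate. In Ribo-Seq, the stretches of RNA covered by ribosomes survive nuclease and are sequenced. A smORF was taken when a gene symbol in its deposited annotation began with KIF, CENP, CDC or MCM followed by the usual number or letter, was an A, B, E or F type cyclin (CCN), or was CDK1, AURKA, AURKB, PLK1, TOP2A, MKI67, BUB1 or TYMS. This rule used names alone and no counts. It found 133 of the 24199 smORFs, in 51 host genes, and no smORF was found in AURKB, PLK1, BUB1 or TYMS.

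The 8 libraries formed 4 groups of 2: undifferentiated cells, a differentiated control, cells differentiated and then given micelles without lipid (made with the bile salt taurocholate), and cells differentiated and then given lipid micelles that carried oleic acid, cholesterol and bovine serum albumin. All were unmodified cells of 1 established line. The labels do not say whether replicates came from separate cultures, so p-values measure only the spread between these libraries, which may be technical. Library totals over all smORFs ran from 506382 to 884711 counts, the lowest in replicate 1 and the second largest in replicate 2 of the differentiated control group. Of 25 tested smORFs in epithelial marker genes, 15 were called higher and 1 lower in differentiated control cells (17.7% and 15.6% over all smORFs tested), while no smORF of the fibroblast or immune marker genes had enough counts to test. The summed level of the epithelial markers was 2335 to 2584 CPM (counts scaled to a common library total) in undifferentiated libraries and 4734 to 7120 in differentiated ones, against at most 33.0 CPM for the fibroblast and 11.7 CPM for the immune markers in any library.

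Dividing cells copy their DNA once per cycle and then part the copies on a spindle. The MCM helicase is loaded on replication origins with the help of CDC6, cyclins with the kinase CDK1 drive entry into mitosis, Aurora kinase A (AURKA) builds the spindle poles, CENP proteins mount the kinetochore on the centromere, and the anaphase-promoting complex (APC) ends mitosis by marking cyclins for degradation. In the gut, dividing cells sit in the crypts and stop dividing as they mature on the villus, and Caco-2 cells leave the cycle after they grow to confluence. The naming rule also took genes that share a name and were read here as having other main roles, such as transport kinesins (KIF5B, KIF1B), the CDC42-binding kinases (CDC42BPA, CDC42BPB, CDC42BPG) and the splicing factor CDC5L. Host genes were therefore read in 2 classes: 33 genes of the division machinery with 97 smORFs, and 18 genes of other roles with 36 smORFs, the latter with the DNA-repair helicase MCM8. The split is approximate, since genes placed in the other roles can also act in division, as KIF2A does in mitosis.

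Nearly all of these smORFs sat ahead of the host protein. By the deposited location class, 120 were in 5′ untranslated regions (uORFs), 11 in 3′ untranslated regions (dORFs) and 2 in non-coding transcripts. In GENCODE release 44 (hg38), 114 of the 120 uORFs lay wholly in 5′ untranslated sequence of the host, all 11 dORFs lay wholly in 3′ untranslated sequence, and no smORF touched host coding sequence. uORFs made up 90.2% of these smORFs and 69.9% of all smORFs. Their length ran from 6 to 125 amino acids with a median of 27, against 31 over all smORFs. Only 2 of them had a positive mean PhyloCSF score, a measure of protein-coding conservation, which is 1.5% against 1.75% of all smORFs. Repeat elements overlapped 21.8% of them and 39.7% of all smORFs. Many shared bases: 84 of the 133 overlapped another smORF on the same strand, and the 133 fell into 69 separate stretches of exon. Overlapping smORFs share reads and are not independent measurements.

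The start codons are shown here because most of these smORFs did not begin with ATG. Only 38 of the 133 (28.6%) began with ATG, against 43.4% of all smORFs, and the share was 18.6% in the machinery and 55.6% in the other roles. A window of 30 bases around the start could be read from the host transcript for 78 smORFs. All 49 of these that did not begin with ATG came directly after an in-frame stop codon, while none of the 29 that began with ATG did. The study scored reading frames from transcripts translated in 3 frames, and the start listed for these 49 smORFs is thus the edge of an open frame, with no initiation site marked. Below, capitals mark the first codon, the 9 bases before it end in the preceding triplet, and the sequences are from GENCODE transcripts, written 5′ to 3′. The first 6 belong to smORFs that were called lower on differentiation, and the stop codon (tag, tga or taa) can be read before each of them. The next 2 belong to smORFs called higher, and the last to a smORF that was not called.
CDK1 IEC_02104, chr10:60778537-60780160, plus strand: ttgttgtagCTGccgctgcggccgccgcgg
CCNA2 IEC_14057, chr4:121823659-121823775, minus strand: gctgggtgaGCGagcgggcgggctggtagg
MKI67 IEC_16699, chr10:128125746-128126351, minus strand: agccgctagAGCcgggcgcccggggacgta
CENPK IEC_17822, chr5:65561514-65561558, minus strand: atggtctagAGGctggagattcaagatctg
CENPI IEC_05057, chrX:101098459-101098536, plus strand: aggaaataaCTCggaacctgtaacgtccca
MCM8 IEC_04288, chr20:5950677-5950793, plus strand: gatcactgaAGCgccaaaaaagaatttagg
CENPS IEC_07320, chr1:10430850-10431041, plus strand: ggccttgcgATGaatcctcggtttcccctt
CDC42BPA IEC_15529, chr1:227317250-227317330, minus strand: gtgtgttggATGtttaattcagcaccagca
KIF5B IEC_14624, chr10:32056177-32056200, minus strand: gccgccgccATGgctgccatgatggatcgg

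The first comparison, differentiated control against undifferentiated cells, asks which of these smORFs changed ribosome reads as Caco-2 cells matured. Counts were tested with edgeR's quasi-likelihood test on all smORFs, and a smORF was called when its Benjamini-Hochberg adjusted p was under 0.05 and its log2 fold change was 1 or more in size. Enough counts for the test were present in 99 of the 133 smORFs, from 38 of the 51 host genes. Of these 99, 65 were called lower in differentiated control cells, 4 were called higher and 30 were not called. The background over all 15182 smORFs tested was 15.6% called lower and 17.7% called higher. The median log2 fold change of the 99 was -1.80 (range -7.25 to 2.02), and the median over all smORFs tested was 0.01. In 74 of the 99, both undifferentiated libraries were above all 6 differentiated libraries (background 25.8%), and in 7 both were below them (background 26.7%). Since each sample is a bulk extract, fewer dividing cells and fewer reads per cell cannot be told apart. Ribo-Seq counts alone do not separate RNA level from translation. For its mass spectrometry, the paper describes undifferentiated Caco-2 cells taken earlier than differentiated ones, and differentiated cells moved to serum-free medium before harvest. If these cultures were handled likewise, time in culture and serum cannot be told apart from differentiation.

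Many smORFs passed the count filter only through the undifferentiated group, where they were high and therefore had to differ. This bears on the role groups below in which all tested smORFs were called lower. On the 6 differentiated libraries alone, the same kind of filter kept 61 of the 133 and 60 of the 99 tested, and the other 39 tested smORFs included 33 of the 65 lower calls. Of the 60, 32 were called lower and 4 higher, with a median log2 fold change of -1.45. The share called over all smORFs that pass this filter was not determined, so these counts have no matched background. With no filter, all 133 could be fitted, 72 were called lower and 5 higher by edgeR, and the background over 22770 smORFs was 12.3% and 13.9%. Of the 34 smORFs left out by the filter, all had counts, between 3 and 66 over the 8 libraries together and at most 25 in any 1 library. In 28 of these 34 the undifferentiated libraries held more counts than the control libraries, and 8 had no count in either control library. Those 8 were in KIF14 (2 of its 3 smORFs), CDC16, CDC25A, CDCA7, CENPA, CENPI and KIF20A, and those of KIF20A, a gene of cytokinesis, and CENPA, the histone of centromeres, are given here, chosen after their values were seen. The KIF20A smORF IEC_08212 had 15 and 8 counts in undifferentiated cells and none in control cells, which is at least 4.09-fold lower against a floor of 3 counts per library. The CENPA dORF IEC_00382 had 5 and 14 counts against none and was at least 3.38-fold lower. The 13 host genes with no tested smORF were CDC16, CDC73, CDCA7, CENPA, CENPH, CENPM, CENPQ, KIF14, KIF21A, KIF26B, KIF3B, MCM10 and MCM7.

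**Figure D1:**
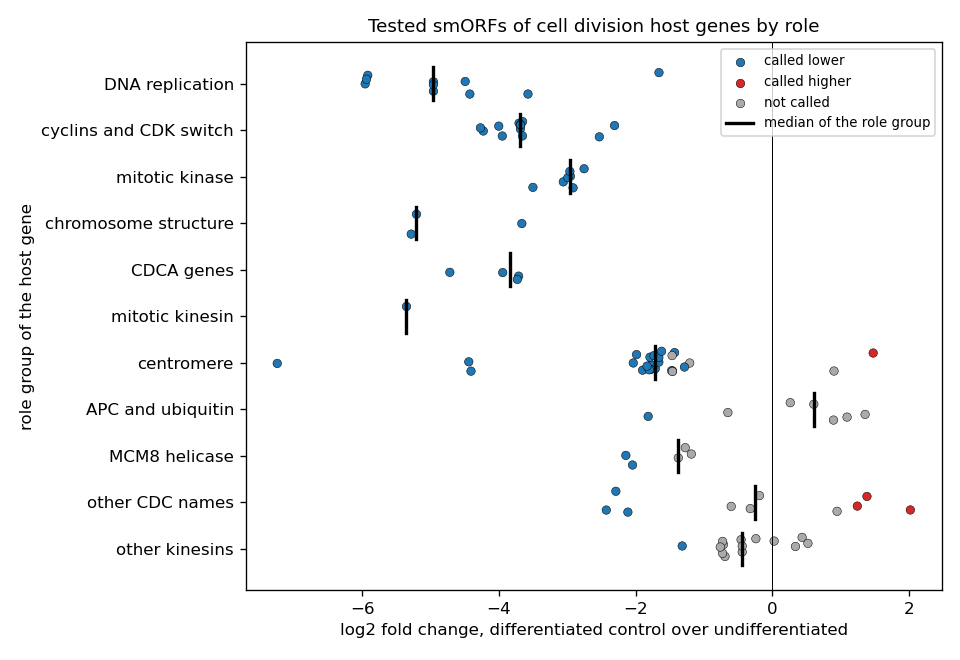
Log2 fold change of differentiated control over undifferentiated cells (x axis) for each of the 99 tested smORFs, in rows by the role of the host gene. Blue points were called lower, red higher, grey not called, and a black line marks the median of each row. The 6 upper rows are blue throughout, the centromere row is mostly blue near its median of -1.72, and the rows of the APC and of the other CDC names and kinesins lie around 0.

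The classes differed in how many smORFs were called. In the machinery, 59 of 70 tested smORFs (84.3%) were called lower and 1 higher, and the median log2 fold change was -2.94, or -2.58 when the 18 smORFs with at most 3 counts in each control library were set to their bound. Of these 70, 32 were tested only through the undifferentiated group, and among the other 38, 29 were called lower and 1 higher with a median of -1.87. A background matched to these 38 was not determined. In the other roles, 6 of 29 (20.7%) were called lower and 3 (10.3%) higher, with a median of -0.60. Over all smORFs tested these shares were 15.6% and 17.7%, so the share called lower in the other roles was near the background. The count called lower in the other roles was 2 without control replicate 1 or without undifferentiated replicate 1, and 4 without control replicate 2. Taking the smORF with the highest mean count in each host gene, 19 of 24 machinery genes were called lower, and 4 of 14 genes of other roles. The summed level of these 24 machinery smORFs was 3488 ± 329 CPM (SD, n = 2) in undifferentiated cells and 429 ± 31.6 CPM in control cells, with every differentiated library between 401 and 452 CPM. A few smORFs weigh heavily in the undifferentiated sum, where CDK1 IEC_04721 alone had a mean of 1137 CPM and AURKA IEC_15984 489 CPM. In control cells these had 57.6 and 58.6 CPM. For the 14 smORFs of other roles the sums were 771 ± 5.02 and 553 ± 53.3 CPM, and 667 ± 154 and 591 ± 76.4 CPM with micelles without and with lipid, where 1 library, at 776 CPM, was above both undifferentiated ones. Among 38 host genes with a tested smORF, 20 had every tested smORF called lower, 5 had some called lower, 2 had some called higher and 11 had no call.

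**Figure D2:**
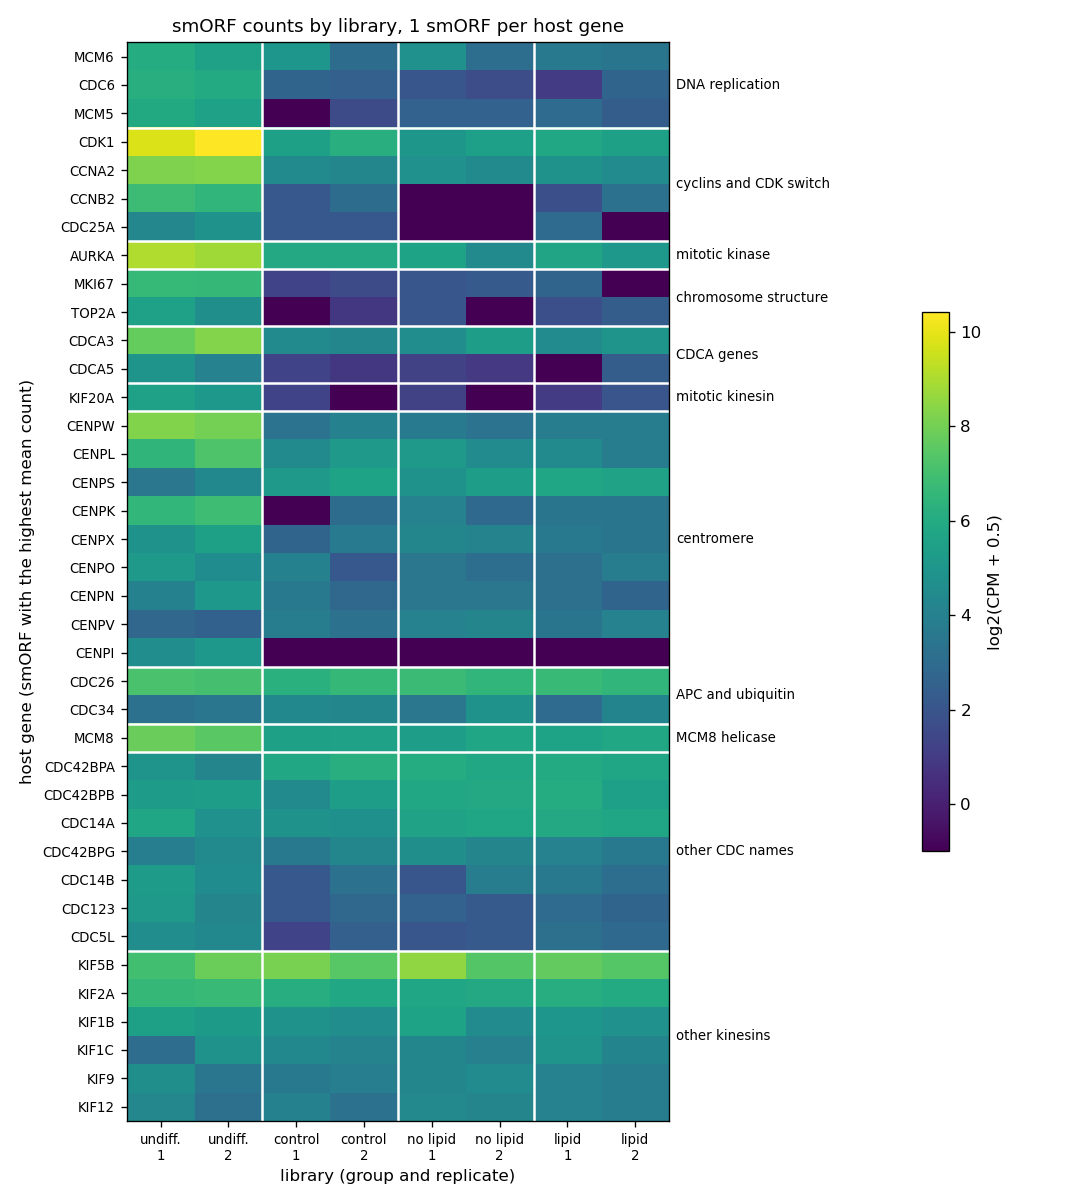
Level of 1 smORF per host gene (rows, the tested smORF with the highest mean count) in each of the 8 libraries (columns), as log2(CPM + 0.5). The first 2 columns are undifferentiated libraries. Rows from CDK1 to KIF20A are brighter in both undifferentiated libraries than in the other 6, whereas KIF5B, KIF2A and CDC26 keep a similar colour across all 8.

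Replication came first in the cycle and fell strongly. All 10 tested smORFs of CDC6, MCM5 and MCM6 were called lower, with a median log2 fold change of -4.96, or -3.53 with 8 of them at their bound. The tested smORFs of CDC6 and MCM5 had at most 5 counts in any differentiated library. They passed the count filter only through the undifferentiated group, so that the share called lower was largely set by the filter. Most of the 10 are nested smORFs of CDC6 and MCM5 that share reads, and the median was -3.60 with 1 smORF per overlapping stretch, -3.58 with 1 per host gene and -4.24 without control replicate 1. The CDC6 smORF with the most counts, IEC_10248 (chr17:40287954-40288091), had 46 and 35 counts in undifferentiated cells, 3 and 4 in control cells, 2 and 2 with micelles without lipid, and 1 and 5 with lipid micelles. Its undifferentiated libraries stood clear of all others, and the log2 value fell by 3.58 ± 0.50 (± is the SE of the fit, edgeR adjusted p = 4.09e-05). Its neighbour IEC_00122 (chr17:40287880-40287996) had 31 and 41 counts against 1 and 0, a ratio of 76.9 with a 95% counting interval of 13.4 to 3079, so that the size of this fall is poorly known. MCM5, a subunit of the replicative helicase, carried 4 nested smORFs, 3 of them with identical counts, of which IEC_00141 had 39 and 26 counts in undifferentiated cells and 0 and 2 in control cells. Its control-to-undifferentiated log2 fold change was -4.96 ± 0.68 (edgeR adjusted p = 3.02e-05), and the 4 micelle libraries held 3 to 5 counts. MCM6, another subunit of that helicase, moved less: IEC_13791 had 43 and 26 counts in undifferentiated cells, 16 and 6 in control cells, 15 and 6 with micelles without lipid and 8 and 9 with lipid micelles. Both undifferentiated libraries were above the other 6 in CPM, and the log2 fold change was -1.66 ± 0.54 (edgeR adjusted p = 0.0225), but the call was lost without control replicate 2 (-0.83) or without undifferentiated replicate 1 (-1.35).

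The switch into mitosis showed the largest counts. All 12 tested smORFs of CDK1, CCNA2, CCNB2 and CDC25A were called lower, with a median log2 fold change of -3.69. CDK1, the kinase of mitotic entry, had 7 smORFs in its 5′ region, and the highest was IEC_04721 (chr10:60778479-60778508), only 10 amino acids long. Its counts were 576 and 770 in undifferentiated cells, 23 and 54 in control cells, 18 and 31 with micelles without lipid, and 38 and 38 with lipid micelles. This was 19.3-fold lower in control cells (log2 fold change -4.27 ± 0.32, edgeR adjusted p = 5.79e-08). The other 6 had log2 fold changes between -3.71 and -3.66. Of these, 5 are spliced into the same stretch just ahead of the CDK1 coding start and therefore share reads. CCNA2 encodes cyclin A2, which acts in S phase and early mitosis. Its smORF IEC_14056 (chr4:121823631-121823882) had 190 and 177 counts in undifferentiated cells, 11 and 14 in control cells, 15 and 15 with micelles without lipid and 19 and 19 with lipid micelles (log2 fold change -3.95 ± 0.32, edgeR adjusted p = 1.18e-07). Cyclin B2 (CCNB2) had 1 smORF, IEC_09871 (chr15:59105128-59105181), with 71 and 52 counts against 2 and 6, none in either library with micelles without lipid, and 2 and 8 with lipid micelles. Its log2 fold change in control cells was -4.00 ± 0.49 (edgeR adjusted p = 1.35e-05). CDC25A, the phosphatase that activates CDKs, was near the lower limit of counting: IEC_19084 had 12 and 16 counts against 2 and 3 (-2.53 ± 0.85 on the log2 scale, edgeR adjusted p = 0.0275), and this call was lost on leaving out any 1 of these 4 libraries (-2.80 to -2.20).

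Aurora kinase A was the only mitotic kinase with smORFs, and all 7 were called lower, with log2 fold changes of -3.50 to -2.76. The highest, IEC_15984 (chr20:56391976-56392206), had 340 and 250 counts in undifferentiated cells, 30 and 45 in control cells, 27 and 15 with micelles without lipid and 34 and 29 with lipid micelles. It was 8.33-fold lower in control cells (log2 fold change -3.06 ± 0.33, edgeR adjusted p = 2.01e-06). MKI67, whose protein Ki-67 coats mitotic chromosomes and is the standard stain for cycling cells, had 63 and 55 counts in IEC_16699 in undifferentiated cells against 1 and 2 in control cells. The ratio was 42 with a 95% counting interval of 14.0 to 207, and the micelle libraries held 0 to 4 counts. Topoisomerase II alpha (TOP2A), which untangles chromosomes, had 29 and 14 counts in IEC_18669 against 0 and 1, a ratio of 45.9 (7.81 to 1855). KIF20A, a kinesin of cytokinesis, had 29 and 19 counts in IEC_04693 (chr5:138179113-138179662) against 1 and 0, a ratio of 51.3 (8.77 to 2066). These 3 smORFs had at most 4 counts in any differentiated library and passed the count filter only through the undifferentiated group. That the direction was the same in every library was therefore largely set by the filter, and the size was bounded only loosely.

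Of the CDCA genes, which were named for their co-expression with the cell cycle, CDCA3 and CDCA5 had tested smORFs and all 4 were called lower. CDCA3, part of a ubiquitin ligase for mitotic entry, had 132 and 176 counts in IEC_13174 (chr12:6850957-6851363) in undifferentiated cells, 11 and 14 in control cells, 13 and 30 with micelles without lipid and 15 and 25 with lipid micelles. The log2 fold change was -3.71 ± 0.36 (edgeR adjusted p = 8.47e-07), and for the shorter IEC_21322 inside it -4.72 ± 0.56 (edgeR adjusted p = 7.06e-06). CDCA5, or sororin, protects the cohesion of sister chromatids, and its smORF IEC_14087 had 19 and 9 counts against 1 and 1, a ratio of 15.0 (3.77 to 130). The CDCA5 call was lost without control replicate 2 (-3.40) or undifferentiated replicate 1 (-3.20).

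The centromere genes split. Of 26 tested smORFs in 9 genes, 21 were called lower, 1 higher and 4 were not called. The count called lower was 8 without control replicate 1 and 8 without undifferentiated replicate 2, and 6 of the 21 calls held on leaving out each library in turn. CENPW is a histone-fold protein of the inner kinetochore. Its smORF IEC_03645 (chr6:126340116-126340262) had 194 and 147 counts in undifferentiated cells, 5 and 12 in control cells, 7 and 7 with micelles without lipid and 9 and 12 with lipid micelles (log2 fold change -4.41 ± 0.34, edgeR adjusted p = 7.95e-08). CENPK IEC_17822 had 59 and 65 counts against 0 and 6, with 5 to 9 in the micelle libraries (log2 fold change -4.44 ± 0.57, edgeR adjusted p = 1.53e-05). Its size rests on the control libraries, with -3.66 without control replicate 1 and -9.04 without control replicate 2, which leaves a control group at 0. CENPI IEC_05057 had 15 and 19 counts in undifferentiated cells and none in any of the 6 differentiated libraries, which is at least 6.05-fold lower in control cells against 3 counts per library. CENPL had the most smORFs of any host, 17 in all, of which 13 were tested and 12 called lower, with log2 fold changes of -2.04 to -1.21 over the 13. Of these 12 overlapping calls, 3 held on leaving out each library in turn and 5 were called by DESeq2, and 4 remained without control replicate 1 or without undifferentiated replicate 2, and 7 without undifferentiated replicate 1. Its highest smORF, IEC_19936, had 56 and 86 counts in undifferentiated cells, 11 and 27 in control cells, 19 and 16 with micelles without lipid and 14 and 12 with lipid micelles (log2 fold change -2.04 ± 0.38, edgeR adjusted p = 5.48e-04). CENPX was represented by nested dORFs, the highest being IEC_22352 (chr17:82018802-82019086), with 18 and 25 counts against 3 and 10. The log2 fold change was -1.83 ± 0.49 (edgeR adjusted p = 0.00815), and the call was lost without control replicate 1 (-1.41) or undifferentiated replicate 2 (-1.47).

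In 2 of the tested centromere smORFs the log2 fold change was positive. The CENPV dORF IEC_19903 had 4 and 3 counts in undifferentiated cells and 7 and 7 in control cells. Both undifferentiated libraries were below all 6 differentiated ones in CPM, but it was not called (0.90 ± 0.68, edgeR adjusted p = 0.315). CENPS, the partner of CENPX in the kinetochore and in DNA repair, had the only smORF called higher in this class. Its uORF IEC_07320 had 7 and 11 counts in undifferentiated cells, 18 and 37 in control cells, 16 and 30 with micelles without lipid, and 36 and 41 with lipid micelles. Both undifferentiated libraries were below all 6 differentiated ones, and the log2 fold change was 1.48 ± 0.43 (edgeR adjusted p = 0.0126). The deposited annotation also lists this smORF under the read-through gene CENPS-CORT, and the call was lost without control replicate 2 (1.25) or undifferentiated replicate 1 (1.11).

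Most smORFs of the APC and ubiquitin genes were not called. Of 7 tested smORFs, 1 was called lower and none higher (15.6% and 17.7% over all smORFs tested), and the median log2 fold change was 0.61. Since 6 of the 7 are in CDC26, this median mostly describes 1 gene. It was 0.12 with 1 smORF per host gene and 0.29 without undifferentiated replicate 2. CDC26, a small subunit of the APC, had 6 smORFs that went different ways along the same 5′ region on chromosome 9. The highest, IEC_17109, had 90 and 74 counts in undifferentiated cells, 39 and 74 in control cells, 61 and 66 with micelles without lipid and 72 and 78 with lipid micelles (log2 fold change -0.65 ± 0.27, edgeR adjusted p = 0.0701). IEC_17110, within the span of IEC_17109, had 48 and 40 counts against 7 and 20 and was called lower (-1.82 ± 0.38, edgeR adjusted p = 0.00129). In IEC_17107, which lies downstream of both, 22 and 11 counts stood against 19 and 35 (0.61 ± 0.38, edgeR adjusted p = 0.22). Whether smORFs of CDC26 differ from each other was not tested. CDC34, a ubiquitin-conjugating enzyme of the cycle, had 6 and 6 counts in its dORF IEC_00129 against 10 and 14 (log2 fold change 0.90 ± 0.60, edgeR adjusted p = 0.258).

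**Figure D3:**
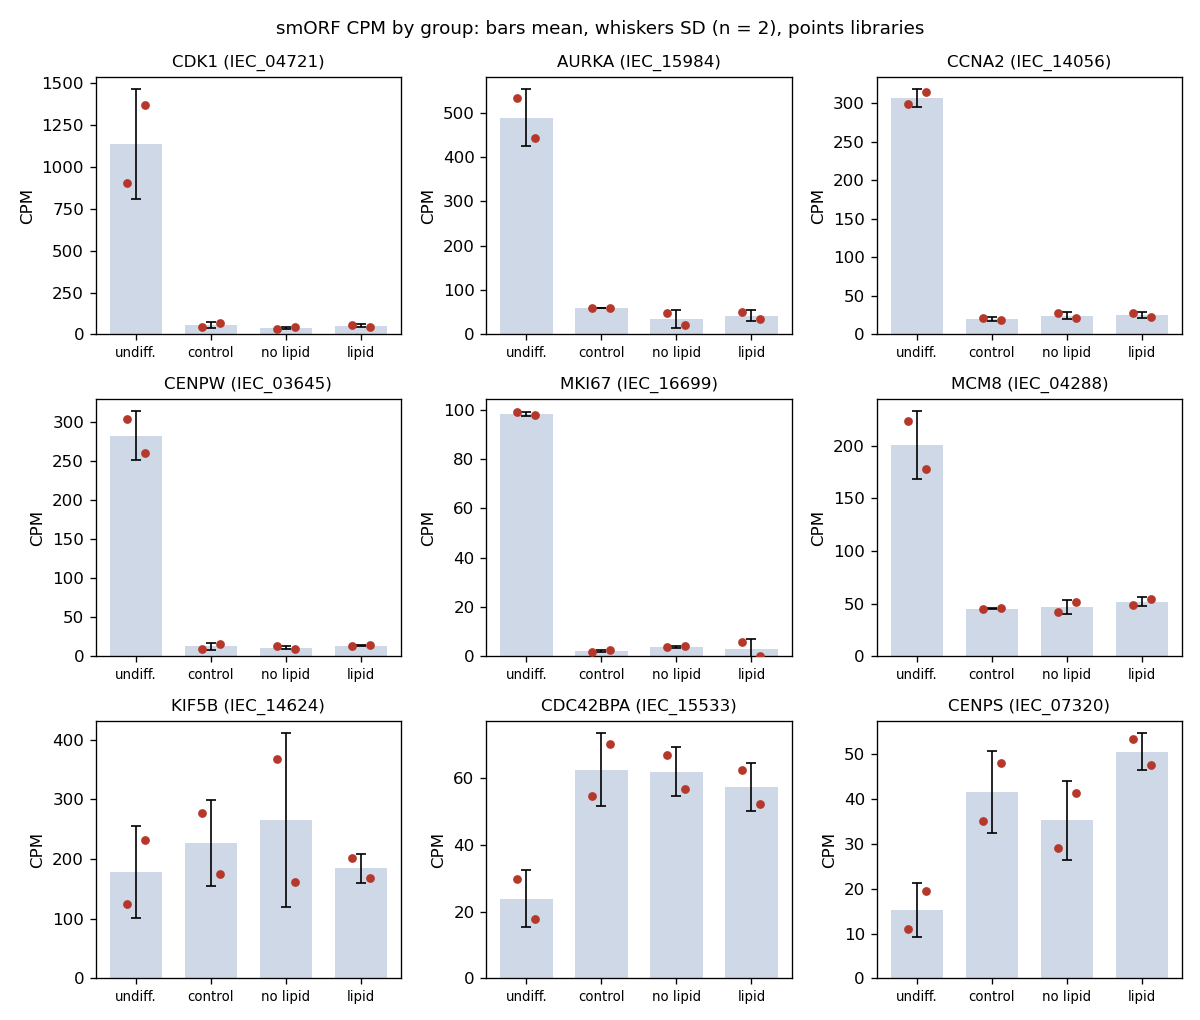
CPM (y axis, each from 0) of 9 smORFs in the 4 groups; bars are means, whiskers SD of 2 libraries, red points the libraries. CDK1, AURKA, CCNA2, CENPW, MKI67 and MCM8 are high in undifferentiated cells alone, KIF5B varies as much within groups as between them, and CDC42BPA and CENPS are lowest in undifferentiated cells.

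Outside the machinery, MCM8 had smORFs that fell. MCM8 works with MCM9 in homologous recombination and is no part of the replicative helicase. Its highest smORF IEC_04288 had 142 and 100 counts in undifferentiated cells, 23 and 35 in control cells, 23 and 37 with micelles without lipid and 33 and 47 with lipid micelles. This was 4.42-fold lower in control cells (log2 fold change -2.14 ± 0.29, edgeR adjusted p = 2.57e-05). Of its 5 tested smORFs 2 were called lower, and in all 5 both undifferentiated libraries were above the other 6 in CPM.

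Most smORFs of the kinesins KIF1B, KIF1C, KIF2A, KIF5B, KIF9 and KIF12 were not called. Of 14 tested smORFs in these 6 genes, 1 was called lower and none higher (15.6% and 17.7% over all smORFs tested), with a median log2 fold change of -0.45. KIF5B, the heavy chain of conventional kinesin that carries vesicles and mitochondria, had 79 and 131 counts in IEC_14624 in undifferentiated cells, 142 and 135 in control cells, 203 and 117 with micelles without lipid and 136 and 144 with lipid micelles. The groups overlapped (log2 fold change 0.34 ± 0.37, edgeR adjusted p = 0.495). KIF2A, which shortens microtubules, also at the spindle poles in mitosis, had 62 and 59 counts in IEC_05017 against 35 and 42 (-0.73 ± 0.29, edgeR adjusted p = 0.0551), though both undifferentiated libraries were above the other 6. All 3 KIF2A smORFs are nested and lie over exons of another annotated gene on the same strand. KIF1B, a carrier of mitochondria and synaptic vesicle precursors, had 28 and 21 counts in IEC_04210 against 14 and 18 (-0.69 ± 0.42, edgeR adjusted p = 0.205). KIF1C had 5 and 16 counts in IEC_02223 against 10 and 13 (0.03 ± 0.56, edgeR adjusted p = 0.976), while IEC_10208, upstream in the same gene and the 1 call in this group, had 24 and 16 against 6 and 11 (-1.32 ± 0.49, edgeR adjusted p = 0.0433), a call that was lost on leaving out any of 6 libraries (-1.48 to -1.09). KIF12 IEC_20154, in a non-coding transcript, had 12 and 5 counts against 8 and 7 (-0.24 ± 0.57, edgeR adjusted p = 0.77).

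Among genes that share the CDC name, 3 of 10 tested smORFs were called lower and 3 higher (15.6% and 17.7% over all smORFs tested). All 3 higher calls were in CDC42BPA (MRCK alpha), a kinase that acts below the GTPase CDC42 on the actin cytoskeleton. The highest, IEC_15533 (chr1:227318177-227318266), had 19 and 10 counts in undifferentiated cells, 28 and 54 in control cells, 37 and 41 with micelles without lipid and 42 and 45 with lipid micelles (log2 fold change 1.38 ± 0.36, edgeR adjusted p = 0.00708). IEC_15529, whose start is shown above, had 3 and 4 counts against 13 and 18 (2.02 ± 0.54, edgeR adjusted p = 0.0078), and IEC_15531 had 11 and 12 against 30 and 27 (1.24 ± 0.41, edgeR adjusted p = 0.0242). These 3 do not overlap each other, so their counts are separate reads of the same transcripts. None of these 3 calls held on leaving out each library in turn: without undifferentiated replicate 1, IEC_15529 had 1.75 and IEC_15531 1.10, without undifferentiated replicate 2 IEC_15533 had 1.09 and IEC_15531 1.41, and without a control replicate IEC_15533 had 1.22 (replicate 2) and IEC_15531 0.91 (replicate 1). By DESeq2, IEC_15533 was called and the other 2 and CENPS were not.

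The 3 lower calls in this set, chosen for naming after their values were seen, were in CDC123, an assembly factor of the translation initiation factor eIF2, in the phosphatase CDC14B and in the splicing factor CDC5L. CDC123 IEC_05881 had 23 and 10 counts against 2 and 5 (-2.29 ± 0.64, edgeR adjusted p = 0.00986). CDC14B IEC_17171 had 24 and 13 against 2 and 7 (-2.11 ± 0.62, edgeR adjusted p = 0.0131). CDC5L IEC_03828 had 15 and 11 against 1 and 4 (-2.43 ± 0.68, edgeR adjusted p = 0.0107). Each of these calls was lost without undifferentiated replicate 1 (-1.68, -1.71 and -2.29) or without control replicate 1 (-1.99, -1.69 and -1.97), and that of CDC123 also without control replicate 2 (-2.70). CDC14A, a related phosphatase, had 34 and 15 counts in IEC_02610 against 14 and 20 (-0.60 ± 0.39, edgeR adjusted p = 0.243). CDC42BPB IEC_16459 had 25 and 23 against 11 and 31 (-0.32 ± 0.39, edgeR adjusted p = 0.544), and CDC42BPG IEC_15835 had 9 and 12 against 6 and 14 (-0.19 ± 0.51, edgeR adjusted p = 0.80).

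The 4 smORFs called higher all began with ATG, and 61 of the 65 called lower did not. Among tested smORFs with ATG, 4 of 23 were called lower and 4 higher, with a median log2 fold change of -0.32, where the background over all tested smORFs with ATG was 10.2% lower and 25.1% higher. Among the 76 without ATG, 61 were called lower and none higher, with a median of -2.48, where the background over all tested smORFs without ATG was 19.0% lower and 13% higher. The start codon went together with the class of the gene, since 61 of the 70 tested machinery smORFs lacked ATG. Inside the machinery, 4 of 9 smORFs with ATG and 55 of 61 without it were called lower. In the other roles, none of 14 with ATG and 6 of 15 without it were called lower. These are counts of overlapping smORFs and carry no test.

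The position before the host protein also varied. A ribosome that starts on the host protein covers bases on either side of the start codon, so reads close to it can come from the host as well as from a smORF. In 23 of the 120 uORFs, from 15 host genes, fewer than 30 bases of genome lay between the last base of the smORF and an annotated coding start of the host. They included IEC_14056 of CCNA2 with 2 bases, IEC_13174 of CDCA3 with 4, 5 of the 7 CDK1 smORFs with 5 or 9, IEC_03645 of CENPW with 11 and IEC_04693 of KIF20A with 18. Of 20 tested uORFs in this set, 15 were called lower and none higher, with a median of -3.69. Many of them overlap and share reads, with 5 in CDK1, 3 in CDCA3 and 3 in KIF2A. Of the 70 tested uORFs farther away, 45 were called lower and 4 higher, with a median of -1.80. These include 13 of CENPL and 7 of AURKA, so both medians give much weight to a few genes. For the machinery alone, 15 of 15 near the coding start and 39 of 47 farther away were called lower. These distances are along the genome and may span introns, so those farther away can be nearer on the RNA. The part of host initiation in these counts was not tested.

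Promoters are shown because cell cycle genes are known for a few short motifs. Genes of replication are often switched by E2F factors, and genes of mitosis by the cell cycle homology region (CHR), the site of the DREAM and MMB complexes, beside CCAAT boxes bound by NF-Y. RefSeq promoters of GRCh38.p14, 250 bases before to 50 after the start, were matched for 43 of the 51 host genes. They were searched on both strands for TTTGAA or TTTAAA (CHR), CCAAT, and TTTCCCGC or TTTGGCGC (E2F), and matches of different motifs may overlap. A CHR match was present in 10 of 28 machinery promoters (35.7%), in 2 of 15 of the other roles (13.3%) and in 24.3% of all 27305 promoters of this length. An E2F match was present in 9 of 28 (32.1%), 1 of 15 (6.7%) and 2.3% of all. CCAAT was present in 20 of 28 (71.4%), 8 of 15 (53.3%) and 35.7% of all, and CHR with CCAAT in 9 of 28 (32.1%), 2 of 15 (13.3%) and 9.5% of all. These matches are descriptions of letters and not of bound factors. The windows below give examples from genes described above, on the strand of the gene, with the match in capitals.
CCNB2, CHR, chr15:59105105-59105134, plus strand: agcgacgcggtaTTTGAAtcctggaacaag
CDCA3, CHR, chr12:6851272-6851301, minus strand: cgtggcgggaagTTTGAAactggtaacttc
MKI67, CHR, chr10:128126453-128126482, minus strand: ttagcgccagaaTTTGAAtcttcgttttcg
KIF20A, CHR, chr5:138179059-138179088, plus strand: cgcagcgcgtaaTTTAAAatattgtatctg
CDC6, E2F, chr17:40287875-40287904, plus strand: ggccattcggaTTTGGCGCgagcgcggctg
MCM6, E2F, chr2:135876577-135876606, minus strand: agggctttgcaTTTGGCGCgaaatcccttt
CDC25A, E2F, chr3:48188443-48188472, minus strand: ggtggattccgTTTGGCGCcaactaggaaa
CDC5L, CHR, chr6:44387695-44387724, plus strand: cttgcgcagatcTTCAAAgcagaaggtcgc

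Counting the annotated start as 0, the CHR shown begins at -29 in CCNB2, at -3 in CDCA3, at -41 in KIF20A and at -47 in MKI67, which has another at -29. The E2F match of CDC6 begins at 7 and lies where its smORF IEC_00122 begins. CDC5L, placed in the other roles and with a smORF that was called lower, has a CHR match in reverse (TTCAAA) at 1. CDC42BPA, with 3 of 4 tested smORFs called higher, has neither a CHR nor an E2F match in this window, and KIF5B, whose smORFs were not called, has a CHR match at -140. CENPS, the other host with a smORF called higher, has an E2F match in reverse (GCGGGAAA) at 8. Hosts with smORFs called lower but neither a CHR nor an E2F match include CCNA2, CENPI, CENPK and CENPW. Whether a match goes with the direction of change was not tested.

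Other genes of division outside the naming rule were read from a list of 102 symbols, of which 34 had a tested smORF. Of their 84 tested smORFs, 64 were called lower and none higher (15.6% and 17.7% over all smORFs tested), with a median log2 fold change of -2.83. How many of them passed the count filter only through the undifferentiated group was not determined, so an unknown share of these calls may have been set by the filter. In TPX2, the activator of Aurora kinase A on the spindle, IEC_01675 had 553 and 541 counts in undifferentiated cells, 22 and 34 in control cells, 11 and 30 with micelles without lipid and 27 and 36 with lipid micelles (log2 fold change -4.38 ± 0.31, edgeR adjusted p = 3.33e-08). In MYBL2, a factor of the MMB complex, IEC_04803 had 194 and 172 counts against 8 and 21 (-3.77 ± 0.36, edgeR adjusted p = 6.22e-07). In GMNN, whose protein geminin blocks the loading of MCM, IEC_04250 had 591 and 172 counts against 92 and 161 (-1.66 ± 0.36, edgeR adjusted p = 0.00193), and its undifferentiated libraries differed widely from each other. NCAPD2, a condensin subunit, had 78 and 81 counts in IEC_09079 against 32 and 111 and was not called (-0.33 ± 0.33, edgeR adjusted p = 0.455).

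The remaining comparisons ask whether micelles, with or without lipid, moved these smORFs in differentiated cells. None of the 99 was called by edgeR in any of the 3, and the background was 0.0% in micelles without lipid against control, 0.0% in lipid micelles against control and 0.0% in lipid micelles against micelles without lipid. An unadjusted p under 0.05 was found by edgeR in 7, 4 and 3 of the 99 smORFs (7.07%, 4.04% and 3.03%, against 4.08%, 4.66% and 4.11% of all tested), and by DESeq2 in 4, 0 and 1, with no member called by DESeq2. Median log2 fold changes were 0.09, 0.05 and -0.09, beside 0.01, 0.00 and -0.01 over all smORFs tested. The first 2 comparisons share the control libraries. The machinery sums described above were 425 ± 34.4 CPM with micelles without lipid and 433 ± 27.2 CPM with lipid micelles, beside 429 ± 31.6 CPM in control cells, so they differed by less than the spread between replicates.

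The smORFs with the smallest p-values are given here. CCNB2 IEC_09871, with 2 and 6 counts in control cells, none with micelles without lipid and 2 and 8 with lipid micelles, had an unadjusted p of 0.00398 in the first comparison and 0.00296 in the third (edgeR adjusted p = 0.894 and 0.999). A count of 0 in these libraries allows up to 5.44 and 4.15 CPM, near the 3.91 and 7.80 CPM of the control libraries, so the difference was not detectable at this depth. CDC14A IEC_02610 had 27.4 and 26 CPM in control cells, 47.1 and 53.9 with micelles without lipid and 57.9 and 51.2 with lipid micelles. All 4 micelle libraries were above both control libraries, and the log2 fold changes were 0.93 ± 0.38 and 1.03 ± 0.37 (edgeR adjusted p = 1.00 and 0.957). CDCA3 IEC_21322 had 9.77 and 2.60 CPM in control cells and 12.7 and 29 with micelles without lipid (log2 fold change 1.92 ± 0.70, edgeR adjusted p = 1.00). CDC26 IEC_17110 had 13.7 and 26 CPM in control cells and 35.7 and 39.6 with lipid micelles (0.86 ± 0.39, edgeR adjusted p = 0.957). CENPL IEC_19935 had 5.87 and 26 CPM in control cells, 21.8 and 13.8 with micelles without lipid and 8.92 and 4.66 with lipid micelles, a log2 fold change of -1.37 ± 0.64 against control and -1.38 ± 0.64 against micelles without lipid (edgeR adjusted p = 0.957 and 0.999). The overlapping CENPL IEC_20225 had a log2 fold change of -1.28 ± 0.59 between the 2 kinds of micelle (edgeR adjusted p = 0.999).

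**Figure D4:**
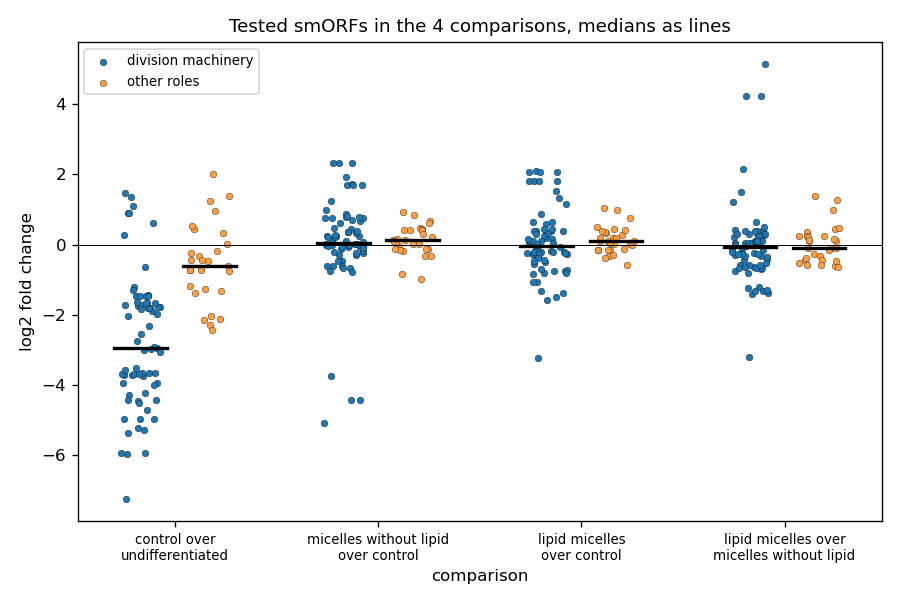
Log2 fold change (y axis) of the 99 tested smORFs in the 4 comparisons (x axis), with the 70 machinery smORFs in blue, the 29 of other roles in orange and medians as black lines. The blue median is -2.94 for control over undifferentiated and lies between -0.06 and 0.05 in the 3 micelle comparisons, where the widest points come from smORFs with few or no counts in a group.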

How the data were processed

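Ribo-Seq reads were aligned by the authors to hg38 with STAR and assembled into transcripts with StringTie, and reading frames of up to 150 amino acids with a RibORF score of at least 0.7 were kept. The deposited table holds raw counts per smORF and library made by the authors with HOMER, with no normalization; its strand, exon and multi-mapping options are not given in the sources used here. The deposited annotation gave hosts, location classes and scores (RibORF and PhyloCSF scores by the authors).

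The members and gene lists were chosen with earlier results of these data known. smORFs were filtered with filterByExpr on the 4 groups, scaled by TMM and tested with edgeR 4.0.16 (quasi-likelihood, a term per group, all 8 libraries, Benjamini-Hochberg over 15182 smORFs). The study states no test for these counts, and the thresholds are those of its RNA-seq. The SE comes from the F statistic. CPM are relative to TMM-scaled totals of tested smORFs, and 3 counts per library (3.49 to 5.87 CPM) is the limit that a count of 0 allows. Intervals (95%, exact binomial) and limits cover counting error only. Fits were tested on simulated counts. smORFs were named by rule: up to 4 host genes per role by mean count, the 10 largest non-overlapping changes, calls against the median, the 3 smallest p-values per micelle comparison and the highest smORF per location class; other smORFs, such as neighbours in a named gene, were chosen after their values were seen. Annotation came from GENCODE release 44 and promoters from RefSeq GRCh38.p14. Alternatives were DESeq2 1.42.0, RLE factors, other filters, 1 smORF per overlapping stretch or host, the compared groups alone, a replicate block and leaving out each library. RNA-seq was not used here.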

Additional observations from a re-analysis of the deposited data

How the results depend on the processing

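The median log2 fold change of these smORFs stayed negative and the count called lower lay between 49 and 70 on leaving out each library, with the medians from -2.51 (without control replicate 2) to -1.58, the count called higher from 1 (without undifferentiated replicate 1, and 2 without undifferentiated replicate 2) to 5, beside an SD of the median over the 4 library pairs of 0.44. Counts called lower fell from 65 to 27 with 1 smORF per overlapping stretch, to 23 with 1 per host gene and to 17 with at least 10 counts in every library, each of which tests fewer smORFs, and to 32 among smORFs that pass the filter on the differentiated libraries alone, an alternative chosen after seeing the data. Counts called higher fell from 4 to 2 with 1 per host gene and with 10 counts in every library, and to 1 with DESeq2, for which the cause was not tested. Of the 65 smORFs called lower, 42 kept their call without each library, 40 of them in the machinery, and 46 were called by DESeq2, while none of the 4 higher calls kept it. The median of the other CDC names, -0.26, turned to 0.54 with 10 counts in every library, to 0.95 with the filter on the differentiated libraries alone, and ran from -0.53 to 0.06 on leaving out each library, the latter without control replicate 1. Small values that were not called changed sign: on leaving out each library, CDC42BPB ran from -0.85 to 0.06, CDC14A from -0.98 to 0.0036, CDC42BPG from -0.54 to 0.14 (0.10 without control replicate 1), KIF5B from -0.04 to 0.87, KIF12 from -0.64 to 0.42 (0.19 without control replicate 2), and KIF1C IEC_02223 from -0.64 to 1.20 (-0.02 without control replicate 1), and to -0.0040 with DESeq2. Replicate numbers were treated as names, since the labels tie them to no shared day or batch: deviations of equally numbered libraries correlated at 0.109 to 0.198 between differentiated groups and at -0.065 to 0.021 with undifferentiated cells. With a replicate block, 65 smORFs were called lower and 4 higher with a median of -1.82, and none were called in the micelle comparisons, also in the differentiated libraries alone. Each micelle comparison stayed at 0 called in these smORFs under the alternatives run for it; those with 1 smORF per host gene, or with hosts whose every symbol meets the naming rule, were not run for micelles. Leaving out a library leaves its group with 1 sample, which is assumed to vary like the other groups. Depth limits smORFs under about 10 counts, for which only the direction can be read, and 2 libraries per group limit every comparison.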
